A study of Mus musculus with 6 samples.

Results

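The genes described here are 10 members of the integrated stress response and of its amino acid synthesis targets. They were taken by symbol from the deposited table of raw read counts, and all 10 were found among its 33084 genes. They comprise the transcription factor genes Atf4 and Ddit3, the stress targets Chac1, Trib3 and Asns, the serine synthesis enzymes Phgdh, Psat1 and Psph, and the mTORC1 inhibitors Sesn2 and Ddit4. The table covers whole forebrain of mouse embryos 15.5 days post coitum, with 3 control libraries (genotype wt) and 3 mutant libraries (genotype Dyrk1a<DlxCre/+>). In the mutants the kinase gene Dyrk1a is inactivated by a Cre driver of the Dlx5 domain, the territory of ventral forebrain GABAergic neurons, and the genotype is written with a + allele. The labels do not say whether the controls carry the Cre driver or the conditional allele, nor whether embryos shared a litter, so p-values measure the spread between these samples. The targeted cells are only part of the tissue sequenced, and in such bulk samples fewer cells of a type and less RNA per cell cannot be told apart.

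The integrated stress response starts when a kinase phosphorylates the translation factor eIF2α, which lowers general protein synthesis but raises translation of the Atf4 message. ATF4 then activates genes for amino acid synthesis and transport, for tRNA charging and, when stress persists, for cell death through CHOP, the product of Ddit3. Serine made from a glycolytic intermediate by PHGDH, PSAT1 and PSPH feeds glycine, folate one-carbon and D-serine metabolism, and in the developing brain radial glia and astrocytes are known for high PHGDH. Since ATF4 is controlled largely at translation, its mRNA level is only a part of its activity.

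Library totals ran from 24646616 to 38315004 counts. The 9 forebrain markers reported here, among them Emx1, Dlx2 and Tbr1, were detected in every library, with a summed level between 548.3 and 707.5 CPM (counts-per-million, scaled by TMM) in controls and between 657.4 and 680.3 in mutants. The controls held 177 ± 7.58 CPM of Dyrk1a itself and the mutants 175 ± 14.6 (SD, n = 3 each), and the count of the whole gene does not single out the deleted part. Both replicate 3 libraries stood apart from the other 4 libraries on the first principal component, which held 37.4% of the variance. The difference of each tested member is therefore also given among replicates 1 and 2 and in replicate 3. On the second component, which held 26.4% of the variance, mutant replicate 2 lay apart at -37.8, with the other libraries between -5.85 and 19.6.

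No member differed between genotypes beyond the spread between embryos. Of the 9 members with enough counts for a test, 0 were called higher and 0 lower in the quasi-likelihood F test of edgeR (adjusted p = 0.9999 for each, Benjamini-Hochberg over all tested genes). Among all 19616 tested genes 0% were called, 376 genes (1.92%) had an unadjusted p under 0.05, and DESeq2 called 0 with 261 at that unadjusted level. Both counts are below the share of 0.05 that p-values give without any difference, so the absence of calls does not show equal levels. With replicates 1 and 2 only, the edgeR count was 1544 of 19652. None of the 9 members had an unadjusted p under 0.05 in the edgeR fit of all 6 libraries. In all 10 members, the untested Trib3 included, the libraries of the genotypes overlapped. They did not overlap in 6.89% of the tested genes, a share too small for 0 of so few members to set them apart from other genes. The 9 values lay between -0.19 and 0.20 on the log2 scale, mutant over control, 7 above 0 and 2 below, with a median of 0.05. Over all tested genes the median was -0.01 and 47.5% lay above 0. Single libraries moved the median of the members: leaving out control replicate 3 gave 0.19 and mutant replicate 1 gave 0.11, while leaving out control replicate 1 gave 0.02, control replicate 2 gave -0.03 and mutant replicate 3 gave -0.01.

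**Figure D1:**
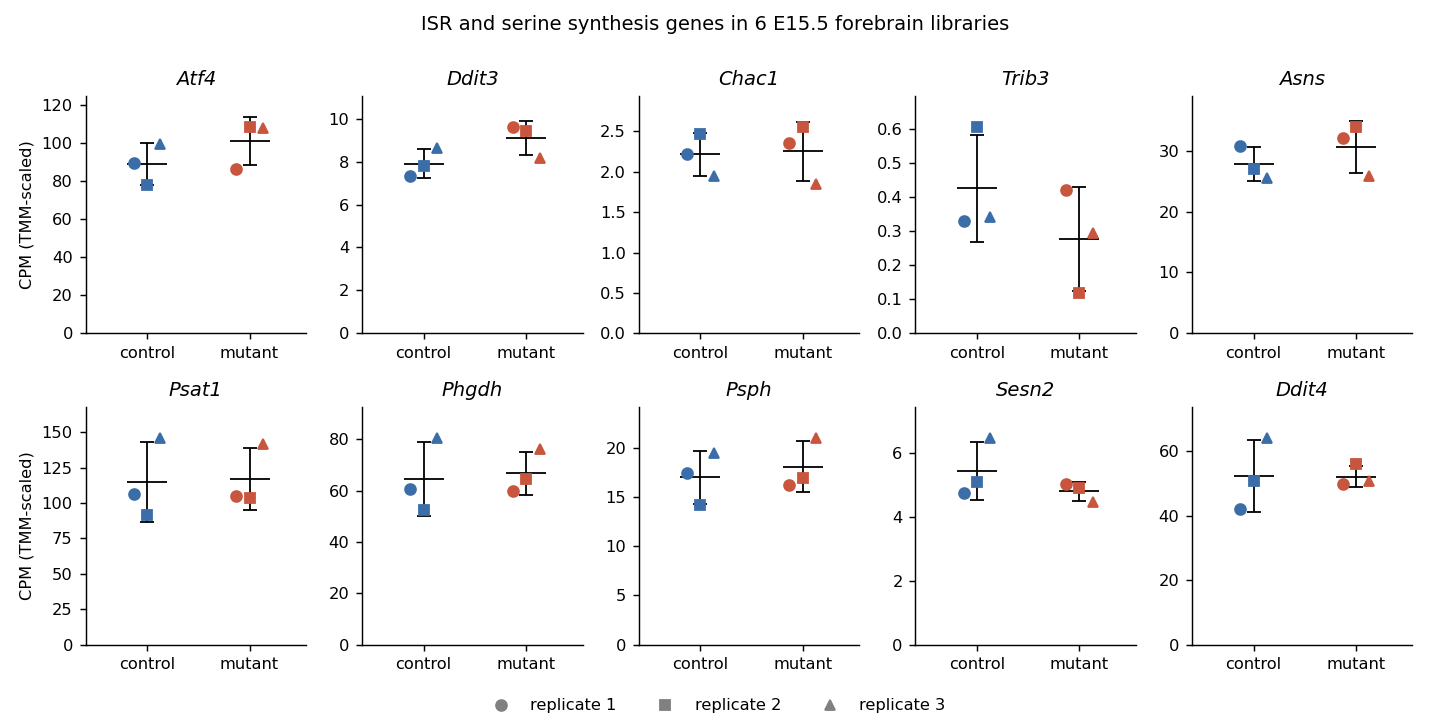
CPM of the 10 members (vertical axes from 0) in control (blue) and mutant (red) libraries, with marker shape for replicate number, and the mean and SD of each group in black (n = 3). The genotypes overlap in every panel, and the triangles of replicate 3 are the highest of their group for Psat1, Phgdh and Psph in both genotypes.

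The members span a wide range of abundance. Compared per kilobase of exon, Atf4 was the most abundant at 40.3 ± 5.25 CPM per kilobase over the 6 libraries (SD), higher than 95.9% of tested genes. Ddit4 followed at 29.8 ± 4.20, Psat1 at 27.2 ± 5.30 and Phgdh at 26.4 ± 4.27 CPM per kilobase. Atf4 was above Ddit4, Psat1 and Phgdh in each of the 6 libraries. Its range over libraries (33.1 to 46.1) overlapped those of Ddit4 and Psat1 but not that of Phgdh. The ranges of Ddit4, Psat1 and Phgdh overlapped one another, so their order was not separated. Asns, which encodes asparagine synthetase, lay apart from its neighbours at 10.7 ± 1.30 CPM per kilobase. Ddit3 at 4.96 ± 0.54 and Psph at 4.05 ± 0.56 CPM per kilobase overlapped each other, as did Sesn2 at 1.48 ± 0.20 and Chac1 at 1.36 ± 0.18. Trib3 was the lowest at 0.166 ± 0.076 CPM per kilobase, above only 3.42% of tested genes. Within the serine pathway, the first enzymes PHGDH and PSAT1 thus had higher transcript levels per kilobase than the last, PSPH, with ranges that did not overlap (21.1 to 32.4 for Phgdh against 3.27 to 4.86 for Psph).

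Atf4 (ENSMUSG00000042406, GRCm38 chromosome 15, 80255184 to 80257541, forward strand) encodes the central transcription factor of the response. Its level was 89.7, 78.0 and 99.8 CPM in control replicates 1, 2 and 3 and 86.4, 108.8 and 107.8 CPM in mutant replicates 1, 2 and 3. Mutant replicates 2 and 3 were above all controls, and mutant replicate 1 lay among the controls. The log2 fold change was 0.18 ± 0.12 (SE), with a 95% interval from a change of -6.90% to one of 37.6%, and it did not pass (unadjusted p = 0.184, adjusted p = 0.9999, edgeR). Leaving out control replicate 2 gave 0.09 and weighting the samples in limma-voom gave 0.10, and the value was 0.275 with control replicate 3 left out and 0.285 with mutant replicate 1 left out. In log2 CPM the mutants exceeded the controls by 0.21 among replicates 1 and 2 and by 0.11 in replicate 3.

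Ddit3 (ENSMUSG00000025408, chromosome 10, 127290774 to 127296288, forward strand) encodes CHOP, the factor that drives the late, pro-apoptotic part of the response. It stood at 7.31, 7.78 and 8.62 CPM in the controls and at 9.63, 9.45 and 8.19 CPM in the mutants, in replicate order. Mutant replicates 1 and 2 were above every control, and mutant replicate 3 was below control replicate 3. The log2 fold change of 0.20 ± 0.14 (SE) had a 95% interval from -7.21% to 42.3% and did not pass (unadjusted p = 0.175, adjusted p = 0.9999, edgeR). The direction did not hold throughout: mutant minus control was 0.34 log2 CPM among replicates 1 and 2 and -0.07 in replicate 3. Weighting the samples in limma-voom gave 0.32 (unadjusted p = 0.0132, adjusted p = 0.4256), and edgeR on replicates 1 and 2 only gave 0.34 (unadjusted p = 0.0400, adjusted p = 0.6296). Ddit3 overlaps Mars, a tRNA synthetase gene with 13580 counts over the 6 libraries, on the opposite strand. Whether the counting used strand is not stated in any source at hand. GENCODE M21 also holds a same-strand, protein-coding entry named Ddit3 (ENSMUSG00000116429) that overlaps it and has no row among the deposited counts. What these overlaps do to the Ddit3 counts was not tested. The share of Ddit3 counts to Atf4 counts in a library averaged 0.0892 ± 0.0095 in controls and 0.0914 ± 0.0182 in mutants (SD, n = 3 each), a difference within the spread.

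Chac1, Trib3 and Asns are direct targets through which ATF4 acts on glutathione, kinase signalling and asparagine. ATF4 binds such genes with C/EBP partners at a composite element, so the 300-base RefSeq windows around start sites on GRCm38.p6 (250 bases before and 50 after) were searched for its core, TGATGNAA, on both strands; no other motif was searched. All 10 members had a window and 3 of them held a match, against 4.51% of the 27025 genes with a window. These are the 3 matches, shown because they hold that core near genes known as ATF4 targets, each read 5′ to 3′ along the strand that carries the core, with the core in capitals.
Chac1: cctggcaggagTGATGCAAcggcagggaag
Trib3: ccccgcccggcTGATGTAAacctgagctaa
Asns: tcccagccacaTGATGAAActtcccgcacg
RefSeq and GENCODE place the starts of these genes at different bases, which matters for their position. The Chac1 stretch lies at chr2:119351038-119351067, on the strand opposite to the gene, and its core is upstream of both starts (119351242 in RefSeq and 119351229 in GENCODE). The Trib3 stretch lies at chr2:152344028-152344057, also on the opposite strand, and its core is downstream of the RefSeq start at 152344060 but upstream of the GENCODE start at 152344032. The Asns stretch lies at chr6:7693214-7693243 on the strand of the gene, and its core is upstream of the RefSeq start at 7693209 but downstream of the GENCODE start at 7693254, inside the gene as GENCODE draws it. A match is a description of letters, and a window without one says nothing about binding.

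Asns (chromosome 6, 7675169 to 7693254, reverse strand), the enzyme gene with a core between its RefSeq and GENCODE starts, stood at 30.9, 27.1 and 25.5 CPM in the controls and at 32.1, 34.0 and 25.9 CPM in the mutants. Mutant replicates 1 and 2 were above every control and mutant replicate 3 among the lowest values of all 6. Its log2 fold change was 0.14 ± 0.13 (SE), with a 95% interval from -9.93% to 35.0% (adjusted p = 0.9999, edgeR). It ranged from 0.06 without mutant replicate 2 to 0.25 without mutant replicate 3, and leaving out control replicate 3 or control replicate 1 gave 0.09 or 0.22. Mutant minus control was 0.19 log2 CPM among replicates 1 and 2 and 0.02 in replicate 3.

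Chac1 (chromosome 2, 119351229 to 119354381, forward strand), which encodes an enzyme that degrades glutathione and is among the most inducible ATF4 and CHOP targets, was low. It had 74, 61 and 74 counts in the controls and 67, 65 and 50 in the mutants, or 2.22, 2.47 and 1.95 CPM against 2.36, 2.56 and 1.84 CPM. The lowest library of each genotype was replicate 3, and mutant minus control was 0.07 log2 CPM among replicates 1 and 2 and -0.08 in replicate 3. The log2 fold change was 0.03 ± 0.20 (SE), with a 95% interval from -25.8% to 40.6%, and its direction turned in several alternatives, with -0.07 once trends with GC content and length were removed from the libraries. At a mean of 65.2 counts, counting alone gives a coefficient of variation of 12.4%, close to the 12.8% seen over the 6 libraries.

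Trib3 (chromosome 2, 152337422 to 152344032, reverse strand) encodes a pseudokinase that is induced by CHOP and ATF4 and restrains the response. It had 11, 15 and 13 counts in the controls and 12, 3 and 8 in the mutants, and it did not pass the filter on low counts. In CPM these were 0.330, 0.608 and 0.343 against 0.422, 0.118 and 0.295. Mutant replicate 2, the library with the lowest Trib3 level, had the highest Atf4 and Chac1 levels of the 6. Without the filter the log2 fold change of Trib3 was -0.55 ± 0.50 (SE, adjusted p = 0.9965, edgeR), and counting alone gives a coefficient of variation of 31.1% at this depth.

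**Figure D2:**
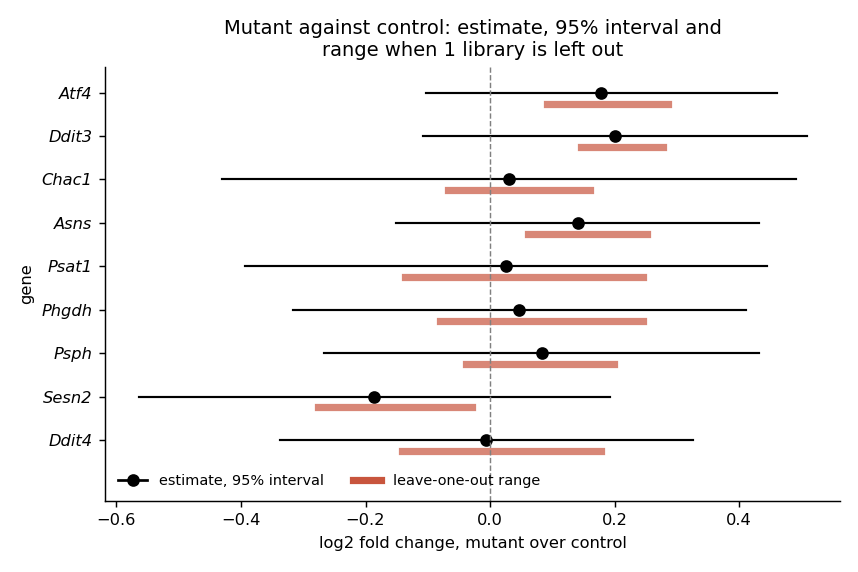
Log2 fold change of the 9 tested members, mutant over control (horizontal axis), with the edgeR estimate and 95% interval in black and the range of estimates when 1 of the 6 libraries is left out in red. Every interval includes 0. The red ranges of Atf4, Ddit3 and Asns lie above 0, that of Sesn2 lies below 0, and those of Chac1, Psat1, Phgdh, Psph and Ddit4 include 0.

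The serine synthesis genes varied more between replicates than between genotypes, and they varied together. Psat1 (chromosome 19, 15904678 to 15947337, reverse strand), the phosphoserine aminotransferase, stood at 106.5, 91.6 and 146.2 CPM in the controls and at 105.2, 103.5 and 142.0 CPM in the mutants. Phgdh (chromosome 3, 98313170 to 98339990, reverse strand), the enzyme that commits 3-phosphoglycerate to serine, stood at 60.7, 52.5 and 80.5 CPM against 59.7, 64.6 and 76.0 CPM. Psph (chromosome 5, 129765558 to 129787449, reverse strand), the phosphatase that releases serine, stood at 17.4, 14.2 and 19.5 CPM against 16.2, 16.9 and 21.02 CPM. In both genotypes each of the 3 genes had its highest value in replicate 3. Their log2 fold changes between genotypes were 0.03 ± 0.18 for Psat1, 0.05 ± 0.16 for Phgdh and 0.08 ± 0.15 for Psph (SE; adjusted p = 0.9999 for each, edgeR). The 95% intervals ran from -23.9% to 36.1%, from -19.7% to 32.9% and from -16.9% to 34.9%. All 3 values turned below 0 without control replicate 2 (-0.11, -0.08 and -0.03) and without mutant replicate 3 (-0.14, -0.05 and -0.04), and all 3 were larger without control replicate 3 (0.25, 0.25 and 0.20). Psat1 was also at -0.03 without control replicate 1, and Phgdh at -0.02 once trends with GC content and length were removed. Mutant minus control was 0.08, 0.14 and 0.08 log2 CPM among replicates 1 and 2 and -0.04, -0.08 and 0.11 in replicate 3, for Psat1, Phgdh and Psph. Psph overlaps Cct6a (47677 counts over the 6 libraries) on the opposite strand, and whether the counting used strand is not stated. That limit applies to every Psph value here, its level and its ratio to Phgdh included.

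Replicate 3 exceeded the mean of replicates 1 and 2 by 0.57 (control) and 0.44 (mutant) log2 CPM for Psat1, by 0.51 and 0.29 for Phgdh and by 0.31 and 0.34 for Psph. Over all tested genes the medians of these differences were 0.01 and 0.01, but TMM scaling by itself keeps such medians near 0. Replicate 3 was the higher in both genotypes for 6396 of the 19616 tested genes. The coefficient of variation of Psat1 was 24.6% in controls and 18.6% in mutants, where tested genes of a like level had medians of 7.05% and 8.30%. For Phgdh the values were 22.3% and 12.5%, against medians of 7.39% and 8.59% at its level. The ratio of Psat1 to Phgdh counts, which needs no scaling, was 1.76, 1.74 and 1.82 in the controls and 1.76, 1.60 and 1.87 in the mutants. The ratio of Psph to Phgdh counts was 0.287, 0.269 and 0.242 against 0.272, 0.262 and 0.276. Ratios between the 3 enzymes thus had coefficients of variation of 5.09% and 5.75% over the 6 libraries, while the genes themselves had 19.5% (Psat1), 16.1% (Phgdh) and 13.8% (Psph). The ratio of Asns to Phgdh counts did not hold in this way: it was 0.316 and 0.340 in the replicate 3 libraries and between 0.509 and 0.537 in the other 4.

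**Figure D3:**
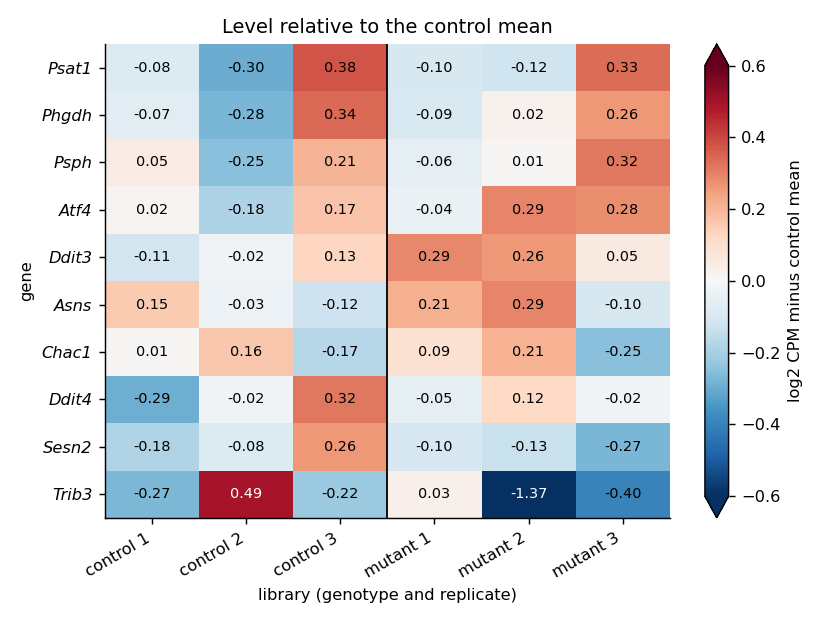
Log2 CPM of each member in each library minus the mean of the 3 controls, with the value written in each cell and colours saturating at 0.6 in either direction. The top 3 rows, the serine synthesis genes, are between 0.21 and 0.38 in both replicate 3 libraries, whereas Chac1 and Asns are below 0 there.

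Marker sums of several cell types set the same libraries apart. The summed level of 8 radial glia markers (Pax6, Sox2, Hes1, Hes5, Fabp7, Slc1a3, Nes and Vim) was 1378 and 1422 CPM in the replicate 3 libraries and between 1065 and 1253 CPM in the other 4, with 5 of the 8 above and 1 below all other libraries in both replicate 3 libraries. By genotype it ran from 1065 to 1378 CPM in controls and from 1152 to 1422 in mutants. The 8 markers of proliferating cells summed to 1567 and 1655 CPM in replicate 3 and to between 902 and 973 CPM in the other 4, and 8 neuronal markers to 5093 and 5151 CPM against 5619 to 6032 CPM. Erythroid markers were split: the embryonic globin gene Hbb-y stood at 320.7 and 322 CPM in replicate 3 against 27.8 to 42.5 CPM, while the other 8 summed to 428.3 and 507 CPM against 553.3 to 624.3 CPM. The microglia sum was lower in replicate 3 (38.4 and 38.8 against 43.8 to 49.7 CPM). Only 2 of its 6 markers were below all other libraries in both replicate 3 libraries. The choroid plexus sum was also lower (280.4 and 292.1 against 332.9 to 441.7 CPM), with 3 of its 5 markers below in that way. The endothelial sums of 236 and 237 CPM and the meningeal and mural sums of 533 and 574 CPM reached into or close to the range of the other 4 (226 to 251 and 568 to 694 CPM). Single markers still set replicate 3 apart there. Of 7 meningeal and mural markers 4 were below and 1 above all other libraries in both replicate 3 libraries, and of 6 endothelial markers 1 was below and 3 above. All markers of these 8 lists were detected in every library, with none at 0, and their part in the difference of the serine genes was not tested.

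**Figure D4:**
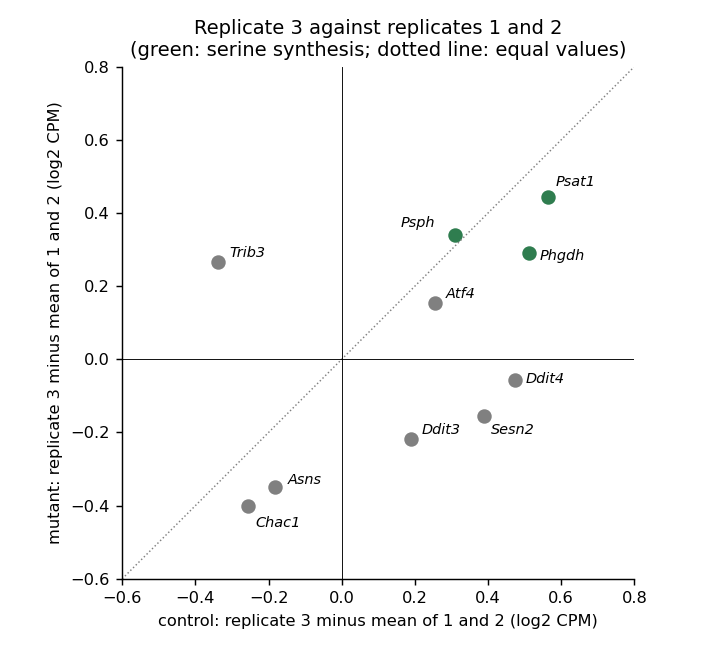
Difference of replicate 3 from the mean of replicates 1 and 2 in log2 CPM, for controls (horizontal axis) and mutants (vertical axis), with 1 point per member and the serine synthesis genes in green. The green points and Atf4 are above 0 on both axes, Chac1 and Asns are below 0 on both, and Ddit3, Ddit4 and Sesn2 are above 0 in controls only.

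Sesn2 and Ddit4 encode stress-induced inhibitors of the growth kinase complex mTORC1, sestrin 2 by sensing leucine and REDD1 through the TSC complex. Sesn2 (chromosome 4, 132492032 to 132510501, reverse strand) stood at 4.76, 5.11 and 6.48 CPM in the controls and at 5.03, 4.92 and 4.46 CPM in the mutants. Control replicate 3 was the highest of the 6 libraries and mutant replicate 3 the lowest. Ddit4 (chromosome 10, 59949669 to 59951834, reverse strand) stood at 42.1, 50.8 and 64.2 CPM in the controls and at 49.8, 56.0 and 50.8 CPM in the mutants. Here too control replicate 3 was the highest library, while mutant replicate 3 lay among the others. The log2 fold changes were -0.19 ± 0.17 for Sesn2, with a 95% interval from -32.4% to 14.3%, and -0.01 ± 0.15 for Ddit4, from -20.9% to 25.4% (SE; adjusted p = 0.9999 for each, edgeR).

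Both estimates moved with single libraries and with the processing. Without control replicate 3 Sesn2 was at -0.03 and Ddit4 at 0.18, and with replicates 1 and 2 only they were at 0.02 and 0.19. Leaving out control replicate 1 instead gave -0.28 for Sesn2 and -0.14 for Ddit4, and weighting the samples in limma-voom gave -0.008 and 0.18. With all libraries kept and the trends with GC content and length removed, Sesn2 was at -0.28 and Ddit4 at -0.10. In log2 CPM, Sesn2 differed by 0.01 within replicates 1 and 2 and by -0.53 within replicate 3, and Ddit4 by 0.19 and -0.34. The spread of Ddit4 was 21.3% (coefficient of variation) in controls and 6.43% in mutants, and that of Sesn2 16.7% and 6.25%. Control replicate 3 was also the deepest library. The ratio of Ddit4 to Sesn2 counts was 8.83, 9.95 and 9.91 in the controls and 9.90, 11.4 and 11.4 in the mutants, so control replicate 3 did not stand apart in the ratio of these 2 genes.

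Profiles over the 6 libraries were compared by the root mean square difference of mean-centred log2 CPM, a measure on which identical profiles score 0. Among the members, Psat1 and Phgdh were the closest pair at 0.068, followed by Phgdh and Psph at 0.077. Chac1 and Asns were at 0.119 and Sesn2 and Ddit4 at 0.127. Among 12792 other genes of at least 5 CPM, the nearest to Atf4 were the proteasome subunit gene Psma7 at 0.032, the mitochondrial import gene Mtx1 at 0.033 and Rcn3, a calcium-binding protein gene of the endoplasmic reticulum, at 0.036, where the median gene was at 0.210. The nearest to Phgdh were Rps27l at 0.026, the fatty acid oxidation enzyme gene Hadh at 0.028 and the zinc finger gene Zfp516 at 0.032. Those nearest to Chac1, among 12793 genes, were the septin gene Sept5 at 0.025, the dynamin gene Dnm1 at 0.028 and Dop1b at 0.028. With 6 libraries, of which 2 stand apart on the first principal component and mutant replicate 2 on the second, such likeness describes these libraries only.

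In the rest of the pathway 0 genes were called in either direction in each of 8 lists. An unadjusted p under 0.05 (edgeR) was reached by Herpud1, 1 of 12 tested genes of its list, and by Akt1s1 and Castor2, 2 of 12 in theirs. In the other lists 0 genes reached it, and over all tested genes 1.92% did. Of the 8 kinases, eIF2 and phosphatase genes upstream of ATF4, 4 lay above 0 and 4 below, and the list's median was 0.01 on the log2 scale, from -0.035 without mutant replicate 3 to 0.044 without control replicate 3. Eif2ak3, which encodes the endoplasmic reticulum kinase PERK, had -0.09 ± 0.08, Eif2ak1, the haem-regulated kinase gene, -0.08 ± 0.10, and Eif2s1, the gene of eIF2α, 0.06 ± 0.13 (SE). The controls held 49.6 ± 1.79 CPM of Eif2ak3 and the mutants 46.7 ± 2.04 (SD, n = 3 each).

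Among 6 tested partners and factors acting with ATF4, 5 lay above 0 with a median of 0.18, the highest of the 8 lists. Nupr1, a small stress-induced chromatin protein gene, had 0.34 ± 0.28 at 0.764 ± 0.181 CPM in controls and 0.955 ± 0.132 in mutants, Atf5 had 0.20 ± 0.17, and Nfe2l2, the gene of the antioxidant factor NRF2, had 0.16 ± 0.14. That median was 0.10 without control replicate 1 and also 0.10 with the replicate block and the GC content and length trend removed. Of the 9 amino acid transporter genes, 4 lay above 0 and 5 below, with a median of -0.03 that was 0.050 when control replicate 2 was left out and 0.056 when mutant replicate 3 was. Slc7a1, a cationic amino acid transporter, had -0.12 ± 0.10 and Slc1a5, a glutamine transporter, 0.16 ± 0.20. Slc38a2, the SNAT2 transporter gene, was lower in every mutant library (278.5, 244.8 and 276.0 CPM) than in every control (285.8, 287.7 and 282.6 CPM), a separation seen in this direction in 3.7% of tested genes, with a log2 fold change of -0.10 ± 0.08.

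Of 12 other tested ATF4 targets 7 lay above 0, with a median of 0.03 that was -0.015 when control replicate 2 was left out and 0.115 when control replicate 3 was. Herpud1, which encodes a membrane protein of endoplasmic reticulum-associated degradation, had the smallest p of that list: it stood at 28.2, 26.1 and 30.6 CPM in the controls and 32.4, 34.7 and 33.2 CPM in the mutants. All mutants were above all controls, as in 3.19% of tested genes, and the log2 fold change of 0.24 ± 0.10 (SE) did not pass (unadjusted p = 0.0356, adjusted p = 0.9999, edgeR). Sqstm1, an autophagy receptor gene, had 0.12 ± 0.09 and Vldlr, a lipoprotein receptor gene, -0.09 ± 0.09. The 20 tRNA synthetase genes, which charge tRNAs and are broadly induced by ATF4, had 15 above 0 with a median of 0.05 and values from -0.08 to 0.13. Leaving out control replicate 2 turned that median to -0.006, leaving out control replicate 3 gave 0.114, and limma-voom with weights gave 0.011. Wars, Sars and Vars, for tryptophan, serine and valine, had 0.08 ± 0.08, 0.10 ± 0.10 and 0.13 ± 0.13.

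Downstream of serine synthesis, 9 of 17 glycine and one-carbon genes lay above 0, with a median of 0.003 that was -0.035 when control replicate 2 was left out and 0.167 when control replicate 3 was. Mthfd2, the mitochondrial folate enzyme gene that is also an ATF4 target, stood at 12.6, 12.1 and 13.9 CPM in the controls and at 13.9, 15.8 and 16.7 CPM in the mutants. Mutant replicate 1 and control replicate 3 met at the same level, and the log2 fold change of 0.26 ± 0.12 (SE) did not pass (unadjusted p = 0.0624, adjusted p = 0.9999, edgeR). In log2 CPM the mutants exceeded the controls by 0.26 among replicates 1 and 2 and by 0.26 in replicate 3. Gcsh, of the glycine cleavage system, had 0.22 ± 0.14 and Dld, a shared dehydrogenase subunit, -0.15 ± 0.10. The medians of this list in replicate 3 relative to replicates 1 and 2 were 0.20 (control) and 0.18 (mutant), in the direction of the serine genes.

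In the other branches of the unfolded protein response, 9 of 12 genes lay above 0 with a median of 0.07, which was -0.007 when control replicate 2 was left out and 0.162 when control replicate 3 was. Sdf2l1 and Creld2, endoplasmic reticulum proteins induced by ATF6, had 0.41 ± 0.28 and 0.21 ± 0.13, and Ern1, the gene of the sensor IRE1, had -0.07 ± 0.09. In the list of sestrin, REDD and mTORC1 regulators 4 of 12 lay above 0, with a median of -0.06 that was -0.020 when control replicate 2 was left out. Akt1s1, which encodes the mTORC1 subunit PRAS40, was higher in every mutant (41.8, 47.6 and 41.7 CPM) than in every control (30.2, 36.2 and 38.7 CPM), with 0.32 ± 0.11. Castor2, of the arginine sensor family, was lower in every mutant (101.1, 102.7 and 104.2 CPM) than in every control (109.9, 120.1 and 119.4 CPM), with -0.18 ± 0.08, and Sesn3, a paralog of Sesn2, had -0.19 ± 0.09. Such separations were seen in 3.19% (mutants higher) and 3.7% (mutants lower) of tested genes. Akt1s1 and Castor2 had unadjusted p-values of 0.0224 and 0.0483 and neither passed (adjusted p = 0.9999 for each, edgeR).

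**Figure D5:**
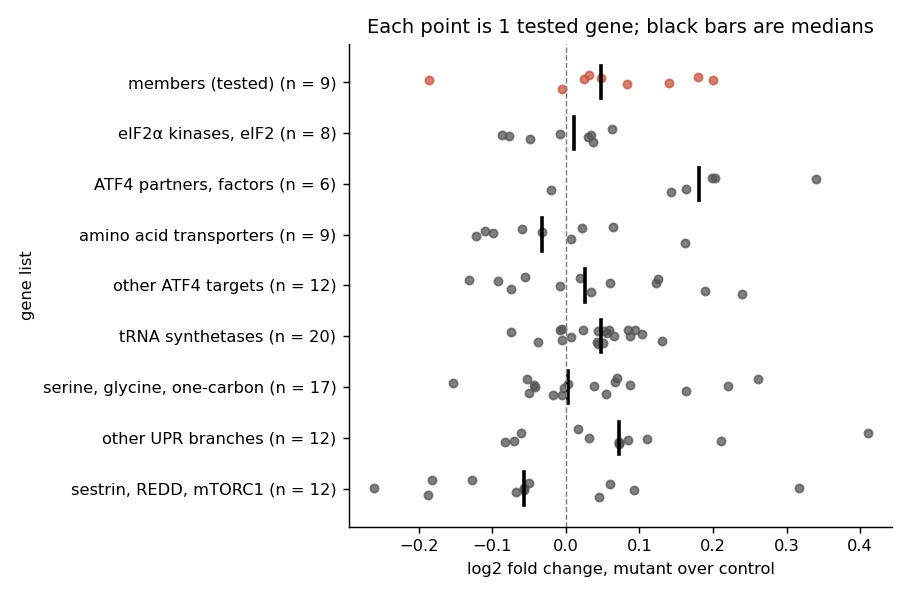
Log2 fold change, mutant over control (horizontal axis), of every tested gene of the members (red) and of 8 pathway lists (grey), with medians as black bars. The medians lie between -0.06 and 0.18, and no gene passed the threshold.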

How the data were processed

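RNA of 6 forebrains was sequenced single-end from TruSeq Stranded Total RNA libraries with Ribo-Zero Gold, per the labels' protocols. The authors deposited unnormalized gene counts, made with HISAT2 on GRCm38 release 93, SAMtools 1.9 and HTSeq 0.9.1, per the series' design text and the submitters' processing notes. How the counting treated strand and overlaps is not stated in any source at hand. No row lacked an identifier. Symbols, coordinates, exon lengths and GC content came from GENCODE M21 (GRCm38), which matched 32888 of 33084 identifiers, and start-site windows from RefSeq (GRCm38.p6). Fgf21, a listed gene, was not analysed here, and 1 further listed marker is not reported here.

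Counts were fitted with edgeR 4.0.16 in R 4.3.3: filterByExpr (count minimum 10, total minimum 15) left 19616 genes, TMM scaling, robust quasi-likelihood F test of mutant against control without covariate, and Benjamini-Hochberg adjustment over all tested genes at 0.05. Log2 CPM used a prior count of 2. Standard errors were computed as the absolute log2 fold change over the root of F. Alternatives used DESeq2 1.42.0 and limma 3.58.1, other filters and scaling, a replicate block, removal of each library's trends with GC content and length (lowess span 0.3), and subsets of libraries. The members and lists were chosen with earlier results of these data known. All members are named, with the 3 genes of smallest p in each list, and the 3 genes of nearest profile to Atf4, Chac1 and Phgdh. Same-numbered libraries were not treated as pairs. Psph overlaps Cct6a (47677 counts over the 6 libraries) and Ddit3 overlaps Mars (13580 counts), both on the opposite strand. Counts of Psph and Ddit3 could hold reads of these abundant genes if strand was not used, which was not tested. Sesn2 overlaps Gm12981 (28 counts in all), and the pseudogene Phgdh-ps1 held 8 counts.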

Additional observations from a re-analysis of the deposited data

How the results depend on the processing

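No member was called in any of 15 alternatives. The count of genes past the threshold stayed at 0 in 14 of them and was 3 with replicates 1 and 2 only (Hist1h2ag, Pisd-ps1 and Tmem181b-ps, named after their values were seen). Leaving out 1 library gave 0 genes past the threshold each time, a median of the members from -0.027 to 0.188, and ranges of -0.068 to 0.160 for Chac1, -0.136 to 0.246 for Psat1, -0.081 to 0.246 for Phgdh, -0.038 to 0.199 for Psph, -0.142 to 0.178 for Ddit4 and -0.053 to 0.052 for Dyrk1a, all of which change sign. Atf4, Ddit3 and Asns were above 0 in all 15, and Sesn2 was below 0 each time 1 library was left out (-0.276 to -0.029). Ddit4 was at 0.179 in limma-voom with sample weights, 0.007 with the filter of at least 1 CPM in 3 libraries and 0.194 with replicates 1 and 2 only, where Sesn2 was at 0.018. With the GC content and length trend removed Chac1 was at -0.071, Phgdh at -0.022, Sesn2 at -0.280, Ddit4 at -0.102 and Dyrk1a at 0.017. Dyrk1a was at 0.047 in limma-voom.

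The labels do not say what a replicate number shares. Deviations from the group means of same-numbered libraries correlated at 0.241, 0.071 and 0.355 over genes, and 4 of 6 libraries correlated best with their own number, so the block below is a description. With the replicate block 0 genes passed, the median of the members was 0.062, Ddit4 was at 0.013 and 765 genes had an unadjusted p under 0.05. With the replicate block and the GC content and length trend removed, 0 genes passed and the unadjusted count was 1051. In that fit Chac1 was at -0.078, Phgdh at -0.015, Sesn2 at -0.271, Ddit4 at -0.090 and Dyrk1a at 0.016. That unadjusted count was 587 without the filter, 1909 in limma-voom and 1544 with replicates 1 and 2 only, and from 179 to 1060 when 1 library was left out. Medians of the pathway lists moved by more than their spread between replicates only when single libraries were left out (transporters 0.050 and 0.056 without control replicate 2 and without mutant replicate 3, one-carbon genes 0.167 without control replicate 3, partners of ATF4 0.102 without control replicate 1) and, for the partners, with the block and trend removal together (0.104). Depth limits Trib3 and Chac1 most.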
